A study of Mus musculus with 8 samples.

Results

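The CD3 chains of the T cell receptor (TCR) and the molecules that act directly downstream of them were followed through 9 genes, Cd3d, Cd3e, Cd3g, Cd247, Lck, Zap70, Lat, Lcp2, and Ptprc, chosen by name from 20170 genes in a single-cell RNA sequencing count matrix. All 9 were present and all passed the filter on low counts in every comparison. Unique molecular identifiers (UMIs) of these genes were summed per library over cells of the CD4 class, of the CD8 class, and of each subset. Splenic T cells of WT mice and of SDHA-KO mice, which carry Sdha fl/fl alleles and Cre under control of the Cd4 promoter, were sequenced unstimulated and after 48 hours with soluble anti-CD3ε (5 μg/mL, clone 145-2C11) and anti-CD28 (2.5 μg/mL). Mice of the study were C57BL/6, 8 to 12 weeks of age and of both sexes, and the labels give the controls only as WT. Each of the 4 groups had 2 libraries, and nothing in the labels says whether these came from separate mice, so p values measure the spread between libraries, which may be technical. The stimulating antibody binds the product of Cd3e.

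The TCR itself has no signaling domain. Its CD3δ, CD3ε, and CD3γ partners and the ζ chain encoded by Cd247 carry the immunoreceptor tyrosine-based activation motifs that the kinase Lck phosphorylates, and the kinase ZAP-70 docks on these phosphorylated motifs. ZAP-70 then phosphorylates the scaffolds LAT and SLP-76 (the product of Lcp2), on which the calcium, Ras, and NF-κB branches assemble. CD45, the phosphatase encoded by Ptprc, keeps Lck ready by removing its inhibitory phosphate.

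Cd3g, Cd3d, and Cd3e lie next to each other on chromosome 9 (GRCm38), with 1355 bases between Cd3g and Cd3d, which are transcribed away from each other, and 11401 bases between Cd3d and Cd3e. After stimulation these 3 neighbors were called lower in both classes and genotypes, with Cd3d falling the least. In SDHA-KO CD4 cells the log2 fold change was −0.28 for Cd3d, −1.26 for Cd3g, and −1.09 for Cd3e. Lcp2 was not called lower. The 250 bases upstream of the annotated starts of these 3 neighbors and of Lcp2 are shown as RefSeq gives them for GRCm38.p6, 5′ to 3′ on the strand of the gene. Capitals mark the 4-base core that ETS family factors bind, GGAA, or TTCC where it lies on the opposite strand.
Cd3g (chr9:44980432-44980681, minus strand): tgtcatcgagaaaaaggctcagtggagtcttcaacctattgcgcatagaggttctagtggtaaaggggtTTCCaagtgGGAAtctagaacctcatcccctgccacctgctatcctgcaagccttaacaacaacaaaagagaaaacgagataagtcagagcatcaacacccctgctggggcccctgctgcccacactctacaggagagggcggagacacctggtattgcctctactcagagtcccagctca
Cd3d (chr9:44981536-44981785, plus strand): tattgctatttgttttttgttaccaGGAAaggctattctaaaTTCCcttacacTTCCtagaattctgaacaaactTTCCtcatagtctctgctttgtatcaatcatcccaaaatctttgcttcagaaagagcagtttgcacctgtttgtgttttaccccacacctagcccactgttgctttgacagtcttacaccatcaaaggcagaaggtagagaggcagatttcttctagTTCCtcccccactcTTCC
Cd3e (chr9:45009612-45009861, minus strand): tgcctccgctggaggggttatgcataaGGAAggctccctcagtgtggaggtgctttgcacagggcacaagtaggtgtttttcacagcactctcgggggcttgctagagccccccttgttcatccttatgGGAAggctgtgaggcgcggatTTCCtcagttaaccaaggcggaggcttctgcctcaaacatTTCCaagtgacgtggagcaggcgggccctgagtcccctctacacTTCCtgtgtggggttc
Lcp2 (chr11:34046678-34046927, plus strand): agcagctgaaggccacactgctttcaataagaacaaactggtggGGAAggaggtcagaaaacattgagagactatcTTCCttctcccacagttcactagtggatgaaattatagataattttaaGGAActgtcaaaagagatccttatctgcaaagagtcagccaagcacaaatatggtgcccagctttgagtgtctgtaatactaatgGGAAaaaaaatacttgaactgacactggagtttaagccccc
The core was found 2 times upstream of Cd3g, 6 times upstream of Cd3d, 5 times upstream of Cd3e, and 4 times upstream of Lcp2. It is a common sequence, present in 93.4% of 32817 promoter windows of this length with a median of 3 matches. An E-box (CANNTG) was found in all 4 windows, 3 times in that of Cd3g and 1 time in each of the others, and in 66.2% of all windows. None of the 4 held a TATAAA box (12.4% of windows) or a TGTGGT match to the RUNX motif (14.0%), and a CCGCCC box (32.7%) was found in that of Cd3g alone. Both strands were searched, and a match of letters says nothing of whether a factor binds there.

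The matrix held 12846 cells with 10947009 to 51398728 UMIs per library, and sums of a class held 3640136 to 34087903 UMIs. Of the cells, 23 barcodes occurred in more than 1 library. Because the authors had removed clusters lacking Cd3g, Cd3d, or Cd3e transcripts, the presence of these 3 genes is partly a condition of the data: 28 of 12846 cells (0.218%) held no UMI of any of them. Levels are given as CPM, a gene's UMIs relative to all UMIs of the same sum, scaled for library composition by TMM, and fold changes and adjusted p values come from edgeR's quasi-likelihood test over all genes of a class, called at an adjusted p under 0.05. Levels of both classes were scaled together and fold changes were fitted per class, so the 2 can differ by a few hundredths on the log2 scale.

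Sdha, the targeted gene, was lower in SDHA-KO libraries of both classes. Its CPM was 99.2 and 98.6 in unstimulated WT CD4 sums against 49.0 and 48.6 in SDHA-KO, and 72.6 and 71.7 against 26.0 and 25.9 after stimulation. In CD8 sums it was 91.9 and 96.3 against 39.7 and 38.0 before stimulation, and 77.6 and 76.6 against 54.3 and 51.8 after it, the smallest of these differences (log2 fold change −0.54 ± 0.070 SE, adjusted p = 8.73e-05). The 5 T cell markers summed to 1537 to 3581 CPM. The 6 markers of γδ T cells, whose precursors mostly do not pass through the stage at which thymocytes carry both CD4 and CD8, summed to 255 and 261 CPM in stimulated SDHA-KO CD8 sums against 18.2 and 21.1 in WT, and 59.1% and 56.1% of cells of that class held a Trdc UMI in SDHA-KO against 3.67% and 4.92% in WT. Strict CD4 cells held a Cd4 UMI and no Cd8a, Cd8b1, or Trdc UMI, and strict CD8 cells a Cd8a or Cd8b1 UMI and no Cd4 or Trdc UMI. This left out more than γδ cells, and unlike parts by genotype. Of unstimulated CD4 cells, 521 of 933 and 540 of 951 were kept in WT against 916 of 1116 and 1042 of 1315 in SDHA-KO. Values for strict classes are given below where they differ from those of the whole class. The 6 markers of B cells summed to 345 CPM in the stimulated SDHA-KO CD8 sum of replicate 1 and to 27.8 to 176 in the other sums. NK, erythroid, and platelet markers stayed at or under 8.79 CPM. The 5 myeloid markers summed to 52.2 to 163 CPM, highest in stimulated SDHA-KO sums, with the defining Lyz2 at 0 in every stimulated sum. The part of these cells in the results was not tested except where values without them are given.

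The first comparison asked how the receptor chains and their signaling partners changed with stimulation. In WT cells, the transcripts of all 4 receptor chains and of Lck made up a smaller part of the UMIs after 48 hours, whereas Lcp2 did not pass the test in either class but did so under some settings given below. In the CD4 class, 8 of 9 members were called (1 higher, 7 lower) where 66.3% of all genes were called (36.2% higher, 30.1% lower). In the CD8 class, 8 of 9 were called, all lower, where 65.7% of all genes were called (35.5% higher, 30.3% lower). The members' median log2 fold change was −0.79 in CD4 and −0.80 in CD8 cells, and the median of all genes tested was 0.08 and 0.09.

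Cd3g, which encodes CD3γ, stood at 869 and 901 CPM in unstimulated WT CD4 sums and at 276 and 288 after stimulation (3.13-fold lower, log2 −1.65 ± 0.076, adjusted p = 6.99e-09). In WT CD8 sums it went from 906 and 974 to 308 and 309 (3.09-fold lower, adjusted p = 5.11e-08). The libraries of the 2 states lay far apart in both classes.
Cd3e, which encodes the chain that the antibody binds, stood at 488 and 495 CPM in unstimulated WT CD4 sums and at 168 and 182 after stimulation (2.79-fold lower, log2 −1.48 ± 0.071, adjusted p = 9.2e-09). In CD8 sums it fell from 531 and 535 to 145 and 150 (3.67-fold lower, log2 −1.88 ± 0.075, adjusted p = 2.47e-09). This was the steepest fall of a member in the 4 comparisons of states.
Cd3d, which encodes CD3δ, went from 814 and 875 CPM to 471 and 499 in WT CD4 sums (1.73-fold lower, adjusted p = 2.83e-06). In CD8 sums it went from 1039 and 1099 to 481 and 499 (2.21-fold lower, adjusted p = 1.18e-07), so the 2 classes, apart before stimulation, ended at overlapping levels.
Cd247, which encodes the ζ chain, went from 409 and 418 CPM to 217 and 230 in WT CD4 sums (1.85-fold lower, adjusted p = 2.7e-06). In CD8 sums it went from 299.9 and 323 to 181 and 182 (1.74-fold lower, adjusted p = 1.18e-06), a call that limma on mean log values did not make (log2 −0.10, adjusted p = 0.118).

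The 2 kinases differed in direction in WT CD4 cells. Lck, which phosphorylates the CD3 chains, went from 380 and 371 CPM to 151 and 156 in WT CD4 sums (2.44-fold lower, adjusted p = 4.04e-08) and from 390 and 418 to 141 and 143 in CD8 sums (2.89-fold lower, adjusted p = 6.06e-09). Zap70, whose product docks on the phosphorylated chains, stood at 65.6 and 63.0 CPM in unstimulated WT CD4 sums and at 75.7 and 81.5 after stimulation (1.23-fold higher, log2 0.30 ± 0.081, adjusted p = 0.00736). Without replicate 2 of unstimulated WT or replicate 2 of stimulated WT this call was lost (log2 0.29, adjusted p = 0.0534 and log2 0.21, adjusted p = 0.104). In CD8 sums Zap70 went the other way, from 66.4 and 68.3 CPM to 50.4 and 51.4 (log2 −0.43 ± 0.094, adjusted p = 0.00202). That fall was lost without composition scaling (log2 0.06), in cells under 10% mitochondrial UMIs (log2 −0.10), and by limma on mean log values per cell (log2 0.02). The difference between the classes was itself called (log2 −0.70 ± 0.113, adjusted p = 0.00101), as were those of Cd3d (−0.33 ± 0.064, adjusted p = 0.00389) and Cd3e (−0.37 ± 0.065, adjusted p = 0.00177), where 12.1% of all genes were called. For Cd3d this call was lost without replicate 1 (−0.31, adjusted p = 0.053) or replicate 2 (−0.33, adjusted p = 0.0511) of unstimulated WT, and a difference of Lck (−0.22) passed without replicate 1 (adjusted p = 0.0358) or 2 (adjusted p = 0.0372) of stimulated SDHA-KO. Without composition scaling, which moved the median of all genes by 0.23 in this comparison, the calls of Cd3d and Cd3e were lost (−0.09, adjusted p = 0.316 and −0.13, adjusted p = 0.166).

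Of the scaffolds, Lat went from 264 and 270 CPM to 191 and 192 in WT CD4 sums (log2 −0.47 ± 0.099, adjusted p = 0.00138) and from 239 and 253 to 171 and 179 in CD8 sums (log2 −0.51 ± 0.120, adjusted p = 0.00301). In cells under 10% mitochondrial UMIs the log2 fold change of Lat was −0.13 (adjusted p = 0.229) in CD4 and −0.10 (adjusted p = 0.494) in CD8 cells, so that the call was lost in both. Without composition scaling it was lost in CD8 sums (−0.03, adjusted p = 0.836). Lcp2, which encodes SLP-76, stood at 109.6 and 103 CPM before and 114 and 115 after stimulation in CD4 sums (log2 0.12 ± 0.080, adjusted p = 0.219), and at 79.9 and 82.9 before and 83.8 and 85.6 after it in CD8 sums (log2 0.04 ± 0.076, adjusted p = 0.688). Its libraries did not overlap between states, by narrow margins. Lcp2 was called higher after stimulation without composition scaling (CD4 0.34, adjusted p = 0.00391, CD8 0.52, adjusted p = 8.42e-05), by limma on mean log values (CD4 0.22, adjusted p = 0.000428, CD8 0.21, adjusted p = 4.42e-05), and in CD4 cells under 10% mitochondrial UMIs (0.20, adjusted p = 0.0454).
Ptprc, which encodes CD45, went from 930.1 and 936 CPM to 707 and 724 in CD4 (log2 −0.38 ± 0.073, adjusted p = 0.000792) and from 979 and 987 to 754 and 720 in CD8 sums (log2 −0.44 ± 0.063, adjusted p = 8.88e-05). By limma on mean log values per cell, which weights each cell alike, it was higher after stimulation instead (log2 0.29, adjusted p = 0.0123 and log2 0.44, adjusted p = 0.000173), and without composition scaling it did not pass in either class (log2 −0.16, adjusted p = 0.0813 and log2 0.05, adjusted p = 0.501). Values by limma, here and elsewhere, are differences of mean log2 values taken with an offset in each cell. Their sizes are therefore not those of fold changes of sums, and they depend on UMIs per cell, which differed between states. The fall of Ptprc by edgeR's test was larger in cells under 10% mitochondrial UMIs (log2 −0.76, adjusted p = 1.92e-06 and log2 −1.02, adjusted p = 1.82e-08). The 3′ counts do not tell splice forms of Ptprc apart.

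**Figure D1:**
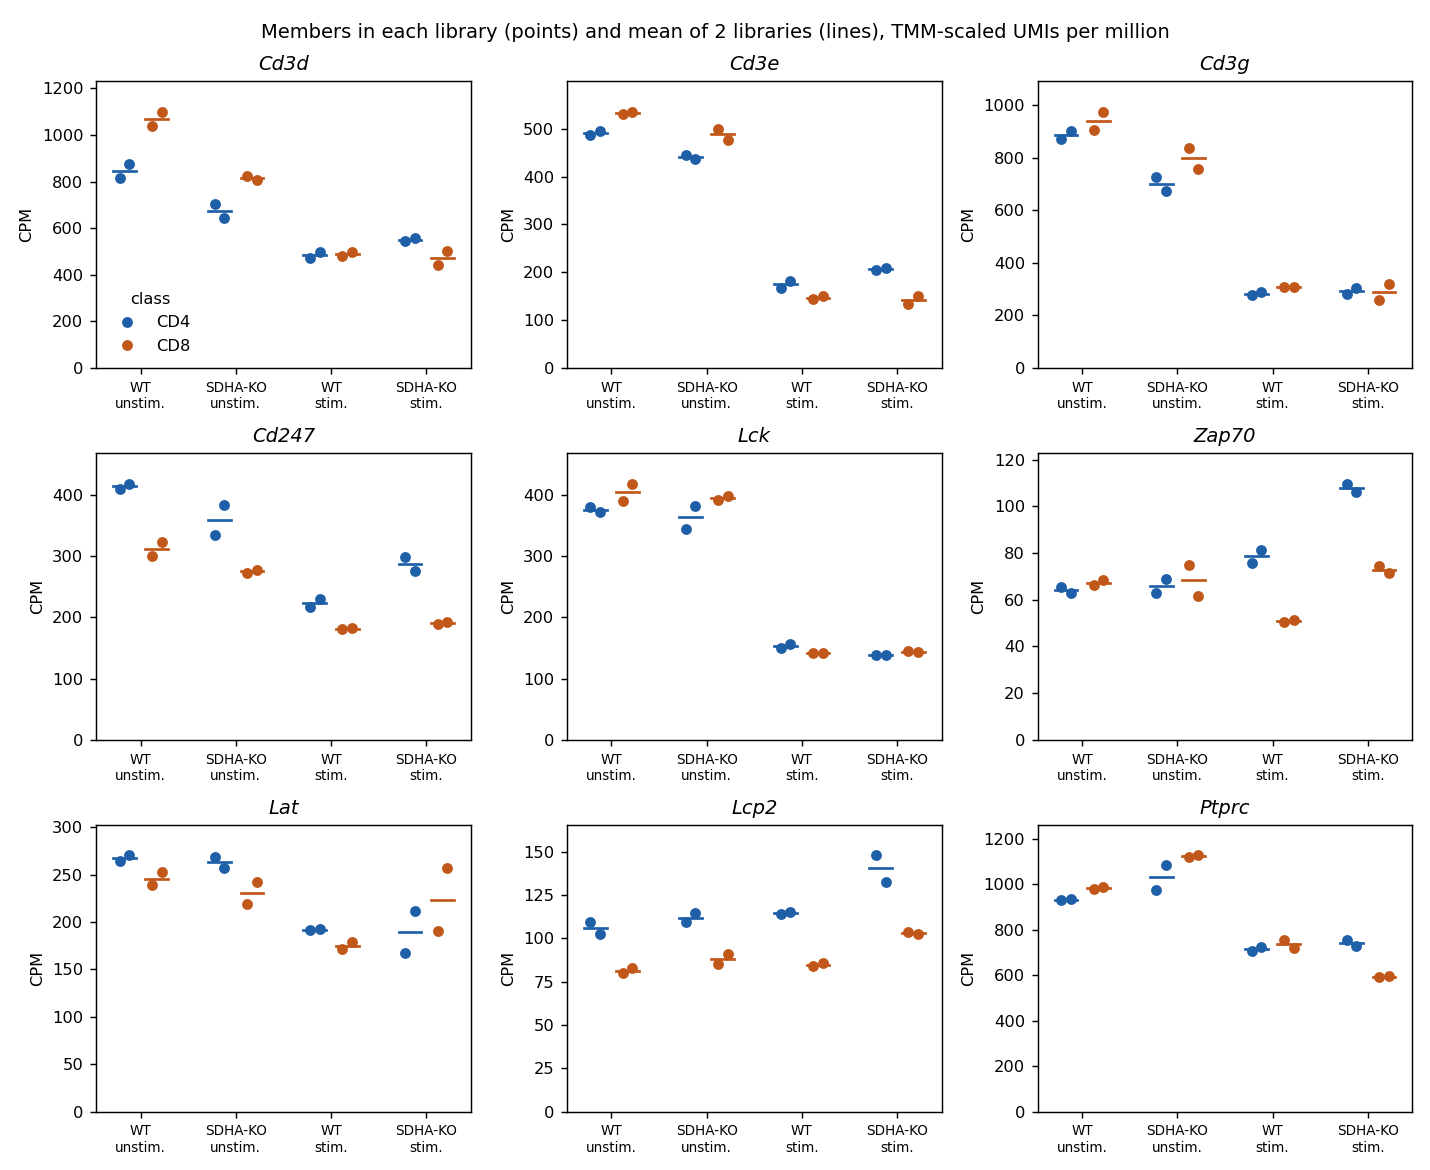
TMM-scaled CPM (linear axis from 0) of the 9 members in unstimulated (unstim.) and stimulated (stim.) WT and SDHA-KO sums, with a point for each of 2 libraries, a line at their mean, and CD4 and CD8 classes in blue and orange. Cd3d, Cd3e, Cd3g, Cd247, and Lck are lower in all stimulated libraries than in all unstimulated libraries of the same class, whereas Zap70 in the CD4 class is higher, from 75.7 to 110 CPM against 62.8 to 69.0.

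These levels are parts of a total that grew. WT cells held 7263 to 9693 UMIs on average in unstimulated sums and 24784 to 30080 in stimulated ones, and no member had a lower mean count per cell after stimulation. Cd3d stood at 5.52 and 6.23 UMIs per cell in unstimulated and at 15.3 and 16.2 in stimulated WT CD4 sums, and Zap70 at 0.445 and 0.449 before and 2.46 and 2.64 after stimulation. Ptprc went from 6.30 and 6.67 to 22.9 and 23.5 UMIs per cell. Cd3e went from 3.31 and 3.53 to 5.46 and 5.92 in CD4 sums, and in CD8 sums its libraries overlapped, at 4 and 4.28 before and 4.17 and 4.51 after stimulation. In such sums, fewer cells of a type cannot be told apart from less RNA per cell of it.

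SDHA-KO cells also held smaller parts of receptor chain and Lck transcripts after stimulation, and differences from WT are tested below. In the CD4 class all 9 members were called (2 higher, 7 lower) where 69.8% of all genes were called (36.6% higher, 33.2% lower), and in the CD8 class 7 were called (1 higher, 6 lower) where 68.2% were called (37.2% higher, 30.9% lower). In CD4 sums of SDHA-KO mice, Cd3g went from 726 and 672 CPM to 280 and 303 (log2 −1.26 ± 0.075), Cd3e from 446 and 437 to 205 and 210 (log2 −1.09 ± 0.070), and Lck from 344 and 382 to 138 and 139 (log2 −1.39 ± 0.074). Adjusted p values of these 3 were 5e-08, 9.11e-08, and 1.98e-08.
The falls of Cd3d, from 703 and 643 to 545 and 556 CPM (log2 −0.28 ± 0.075, adjusted p = 0.00567), and of Cd247, from 334 and 384 to 298 and 275 (log2 −0.32 ± 0.083, adjusted p = 0.00473), were small in SDHA-KO CD4 cells. The first was lost without replicate 1 of unstimulated SDHA-KO (log2 −0.19, adjusted p = 0.0554) and the second without its replicate 2 (log2 −0.20, adjusted p = 0.0697). Both were also lost by limma on mean log values (log2 0.08 and 0.09) and without composition scaling (log2 −0.06, adjusted p = 0.448 and log2 −0.10, adjusted p = 0.317).
Zap70 went from 62.8 and 69.0 CPM to 109.7 and 106 in these CD4 cells (log2 0.72 ± 0.078, adjusted p = 7.38e-06), the largest rise of a member in any comparison between states. Lcp2 went from 109.3 and 115 to 148 and 133 (log2 0.33 ± 0.077, adjusted p = 0.00254). Lat fell from 269 and 257 to 168 and 212 CPM (log2 −0.47 ± 0.098, adjusted p = 0.0013), and Ptprc from 977 and 1087 to 757 and 728 (log2 −0.47 ± 0.073, adjusted p = 0.000136), a fall that limma on mean log values did not call.

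In CD8 sums of SDHA-KO mice, Cd3e went from 499 and 477 CPM to 134 and 150.1 (log2 −1.79 ± 0.075, adjusted p = 3.46e-09), Cd3g from 838 and 757 to 259 and 319 (log2 −1.48 ± 0.097, adjusted p = 1.08e-07), and Lck from 391 and 399 to 145 and 143 (log2 −1.47 ± 0.070, adjusted p = 8.28e-09). Cd3d went from 823 and 805 to 444 and 504 (log2 −0.79 ± 0.075, adjusted p = 2.34e-06) and Cd247 from 272 and 278 to 189 and 192 (log2 −0.54 ± 0.070, adjusted p = 3.14e-05), the latter with 0.03 by limma on mean log values. Ptprc fell from 1119.7 and 1127 to 591 and 599 CPM (log2 −0.93 ± 0.063, adjusted p = 1.42e-07). Zap70, at 75.0 and 61.6 before and 74.3 and 71.5 after stimulation, and Lat, at 219 and 243 before and 190.3 and 257 after it, did not pass the test (log2 0.08, adjusted p = 0.458 and log2 −0.06, adjusted p = 0.662), and their libraries overlapped. In strict CD8 cells, those with a Cd8a or Cd8b1 UMI and no Cd4 or Trdc UMI, Zap70 was higher after stimulation (log2 0.50 ± 0.107, adjusted p = 0.000984), as it was without composition scaling (0.37, adjusted p = 0.00544) and by limma on mean log values (0.17, adjusted p = 0.000562). Without replicate 2 of stimulated SDHA-KO, Lat passed (−0.30, adjusted p = 0.0169). The rise of Lcp2, from 85.1 and 91.0 to 104 and 103 (log2 0.22 ± 0.077, adjusted p = 0.026), was 0.54 in strict CD8 cells (adjusted p = 0.000142) and was lost in the whole class without replicate 1 of unstimulated SDHA-KO (0.18, adjusted p = 0.122), replicate 2 of stimulated WT (0.20, adjusted p = 0.0508), and replicate 1 (0.19, adjusted p = 0.112) or replicate 2 (0.21, adjusted p = 0.0754) of stimulated SDHA-KO.

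**Figure D2:**
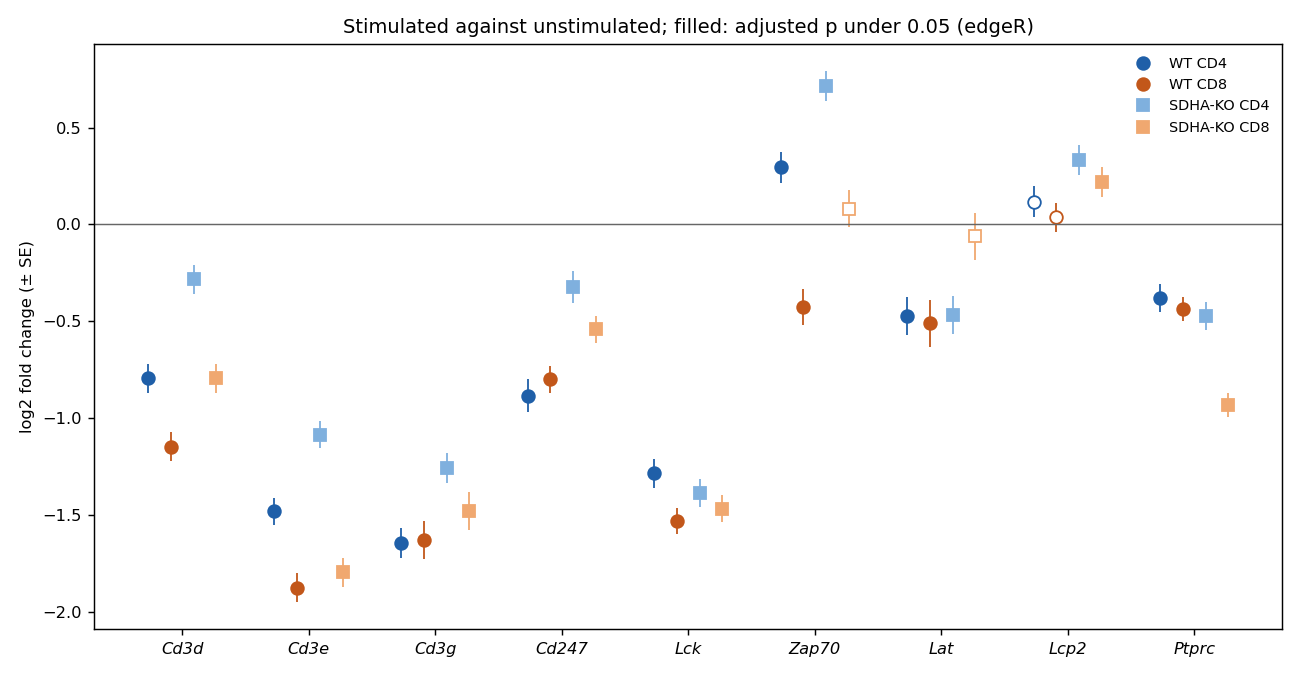
Log2 fold change (± SE) of each member in stimulated against unstimulated sums for WT and SDHA-KO, CD4 and CD8 classes, with filled symbols at an adjusted p under 0.05. Cd3e, Cd3g, and Lck fall by more than 1 on the log2 scale in all 4 comparisons, and Zap70 spans −0.43 in WT CD8 to 0.72 in SDHA-KO CD4.

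Falls of Cd3e, Cd3g, and Lck kept their call under each of the 19 alternative settings in both classes and genotypes. Without composition scaling, the median of all genes moved by 0.22 to 0.48 on the log2 scale in the 4 comparisons of states. Over all of the 19 settings, which do not share 1 scale, the smallest of the 12 falls of these 3 genes was that of Lck in WT CD4 (−0.55).

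The second comparison asked whether loss of SDHA changed these genes before stimulation. In unstimulated CD4 sums none of the 9 members was called by edgeR's quasi-likelihood test, 3 had an unadjusted p under 0.05, and DESeq2's Wald test called 2, where 1.10% of all genes were called. Those nearest to the threshold were receptor chains. Cd3g stood at 726 and 672 CPM in SDHA-KO against 869 and 901 in WT (log2 −0.34 ± 0.074, adjusted p = 0.0596) and Cd3d at 703 and 643 against 814 and 875 (log2 −0.33 ± 0.076, adjusted p = 0.0706), so the libraries of both did not overlap in CPM. In UMIs per cell both genes overlapped (Cd3g 6.087 and 5.504 against 5.893 and 6.42, Cd3d 5.895 and 5.261 against 5.516 and 6.234). They passed the threshold in 7 and 6 of 19 alternatives, among them without replicate 1 (adjusted p = 0.029 and 0.0461) or without replicate 2 (adjusted p = 0.0279 and 0.0442) of stimulated SDHA-KO.
In unstimulated CD8 sums 4 of 9 members had an unadjusted p under 0.05 by edgeR's test. Cd3d, Cd3g (log2 −0.25 ± 0.096, adjusted p = 0.268), and Cd247 (−0.19 ± 0.071, adjusted p = 0.25) were lower in SDHA-KO, and Ptprc was higher (0.18 ± 0.063, adjusted p = 0.222). Of these Cd3d was the member called, at 823 and 805 CPM against 1039 and 1099 in WT (1.32-fold lower, log2 −0.41 ± 0.075, adjusted p = 0.0359), where 0.947% of all genes were called. Per cell its libraries overlapped, at 8.305 and 7.58 UMIs in SDHA-KO against 7.831 and 8.788 in WT. Leaving out any 1 of the 4 unstimulated libraries ended the call with the fold change at −0.36 to −0.43: without replicate 1 or 2 of WT the adjusted p was 0.226 and 0.374, and without replicate 1 or 2 of SDHA-KO it was 0.174 and 0.226. It was also lost without composition scaling (−0.27, adjusted p = 0.0767), which moved the median of all genes by 0.125, and by limma on mean log values. In strict CD8 cells Cd3d was lower by a similar size (log2 −0.39 ± 0.0793, adjusted p = 0.0244). The kinases and scaffolds differed little in these cells, from −0.10 (Lat) to 0.10 (Lcp2) on the log2 scale with standard errors of 0.070 to 0.126. The SDHA-KO effect on the members did not pass a test of its difference between CD8 and CD4 cells before stimulation (0 members called, 0 at an unadjusted p under 0.05 by edgeR, where 0.0421% of genes were called), with differences of −0.07 to 0.10 and standard errors of 0.065 to 0.133.

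The same comparison was made after stimulation. In CD4 sums 4 members were higher in SDHA-KO (Cd3e, Cd247, Zap70, and Lcp2) and none was lower, where 43.2% of all genes were called and 22.7% were higher. Zap70 stood at 109.7 and 106 CPM in SDHA-KO against 75.7 and 81.5 in WT (1.38-fold higher, log2 0.46 ± 0.074, adjusted p = 0.000534), and Cd247 at 298 and 275 against 217 and 230 (1.29-fold higher, log2 0.36 ± 0.082, adjusted p = 0.0046). Both calls held under each of the 19 alternatives. Lcp2 stood at 148 and 133 CPM against 114 and 115 (log2 0.30 ± 0.075, adjusted p = 0.00842) and Cd3e at 205 and 210 against 168 and 182 (log2 0.24 ± 0.069, adjusted p = 0.0149). These 2 calls were lost without replicate 1 of stimulated WT (log2 0.30, adjusted p = 0.0522 and log2 0.20, adjusted p = 0.128), and that of Cd3e in strict CD4 cells as well (0.21, adjusted p = 0.0517). Cd3g (adjusted p = 0.623), Lat (adjusted p = 0.932), Ptprc (adjusted p = 0.571), Lck (adjusted p = 0.121), and Cd3d (adjusted p = 0.0664) did not pass the test, with log2 fold changes of 0.05, −0.01, 0.06, −0.15, and 0.19. The last passed it without replicate 1 or 2 of unstimulated SDHA-KO (0.20, adjusted p = 0.0324 and 0.0333).

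In stimulated CD8 sums the members called were Zap70, Lat, and Lcp2, higher in SDHA-KO, and Ptprc, lower, where 50.4% of all genes were called (26.8% higher, 23.5% lower). Zap70 stood at 74.3 and 71.5 CPM against 50.4 and 51.4 in WT (1.43-fold higher, log2 0.52 ± 0.082, adjusted p = 0.000354), and Lcp2 at 104 and 103 against 83.8 and 85.6 (log2 0.28 ± 0.067, adjusted p = 0.00451). Both calls held under each of the 19 alternatives. Ptprc stood at 591 and 599 CPM against 754 and 720 (1.24-fold lower, log2 −0.31 ± 0.062, adjusted p = 0.00149), and this difference was gone in cells under 10% mitochondrial UMIs (log2 0.02 ± 0.0535, adjusted p = 0.86). It is a difference in the part of the UMIs, and its cause was not tested. SDHA-KO cells held 36972.5 and 36823.8 UMIs on average against 24784.1 and 26752.2 in WT. Per cell, Ptprc was higher in SDHA-KO, at 24.12 and 23.79 UMIs against 21.65 and 21.71. Lat, at 190.3 and 257 against 171 and 179 (log2 0.35 ± 0.115, adjusted p = 0.0265), was carried by replicate 2 of SDHA-KO, without which it was at 0.11 (adjusted p = 0.386). It was also lost without replicate 1 (0.35, adjusted p = 0.0543) or 2 (0.35, adjusted p = 0.0545) of unstimulated WT and without replicate 1 (0.30, adjusted p = 0.134) or 2 (0.36, adjusted p = 0.077) of stimulated WT, in cells under 10% mitochondrial UMIs (0.04, adjusted p = 0.809), without composition scaling (0.28, adjusted p = 0.0503), with only the 4 libraries compared, and with thinned sums. The CD3 chains and Lck lay between −0.10 and 0.07 with standard errors of 0.066 to 0.094, and of these Cd3g passed the test without replicate 2 of SDHA-KO (−0.27, adjusted p = 0.0378).

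**Figure D3:**
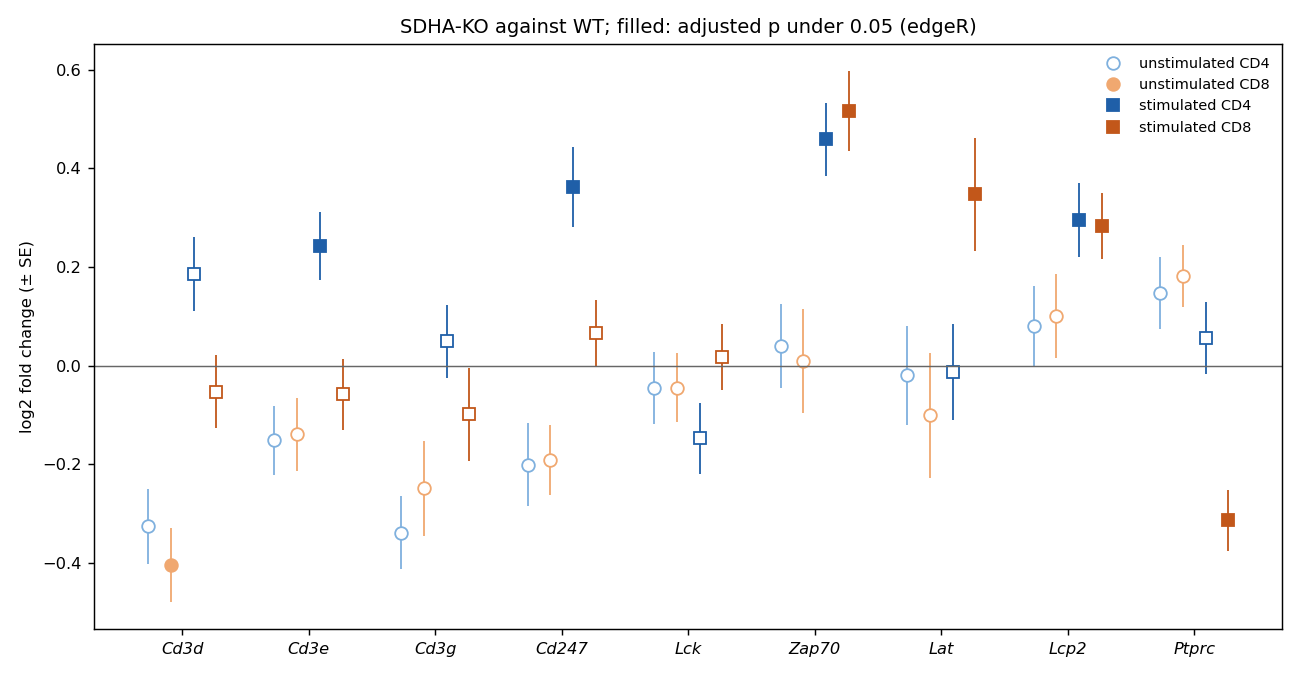
Log2 fold change (± SE) of each member in SDHA-KO against WT sums, unstimulated (circles) and stimulated (squares), CD4 in blue and CD8 in orange, with filled symbols at an adjusted p under 0.05. Zap70 and Lcp2 are higher in stimulated SDHA-KO cells of both classes, by 0.46 and 0.52 and by 0.30 and 0.28, and the receptor chains lie below 0 before stimulation.

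Most cells of the stimulated SDHA-KO CD8 class held a Trdc UMI, so the strict CD8 cells were compared on their own. There Zap70 stood at 100.2 and 91.4 CPM against 49.1 and 50.4 in WT (log2 0.95 ± 0.0888, adjusted p = 2.14e-06) and Lcp2 at 127 and 134 against 82.5 and 82.4 (log2 0.66 ± 0.0779, adjusted p = 1.39e-05), so both differences were larger than in the whole class. Cd3e, at 174 and 179 against 144 and 148, turned from −0.06 to 0.27 ± 0.0776 (adjusted p = 0.00971). Ptprc stayed lower, at 509 and 541 against 727 and 700.3 (log2 −0.44 ± 0.0737, adjusted p = 0.000234).
Within the stimulated SDHA-KO CD8 class, cells with a Trdc UMI had lower unscaled CPM than strict cells of the same library for Cd3e (123 and 139 against 199 and 205), Zap70 (65.8 and 62.2 against 115 and 104), and Lcp2 (95.9 and 86.7 against 146 and 153). Cd3d (466.6 and 504.1 against 559.7 and 613.6) and Lck (158 and 142.8 against 170.1 and 178) were lower in Trdc cells too, and Ptprc was higher (678.6 and 675.1 against 583.8 and 617.7). Cd247 (209.8 and 204 against 211 and 221), Lat (212 and 270.3 against 216 and 286), and Cd3g (293 and 343.2 against 281.4 and 348.9) of Trdc cells lay close to those of the strict cells. The Trdc cells numbered 302 and 222 and the strict cells 169 and 147.

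The SDHA-KO effect itself was compared between states. In CD4 cells it was more positive after stimulation for Cd3d (difference of log2 fold changes 0.51 ± 0.107, adjusted p = 0.00673), Cd3e (0.40 ± 0.098, adjusted p = 0.0158), Cd3g (0.39 ± 0.105, adjusted p = 0.0228), Cd247 (0.56 ± 0.118, adjusted p = 0.00678), and Zap70 (0.42 ± 0.112, adjusted p = 0.0219), where 21.4% of all genes were called. Only the difference of Cd247 kept its call under each of the 18 alternatives run for it. The 5 calls became 2 in cells under 10% mitochondrial UMIs, those of Cd3d and Cd247, 2 without replicate 1 of stimulated WT or of unstimulated WT, and 1 without replicate 2 of unstimulated WT. Zap70 was also lost without replicate 1 of unstimulated SDHA-KO (0.36, adjusted p = 0.0657) and Cd3g without its replicate 2 (0.34, adjusted p = 0.0628).
In CD8 cells it was more positive for Cd3d (0.35 ± 0.105, adjusted p = 0.0326) and Zap70 (0.51 ± 0.134, adjusted p = 0.0186) and more negative for Ptprc (−0.50 ± 0.089, adjusted p = 0.0028), where 23.7% were called. Leaving out 1 library left 1 call, that of Ptprc, in 4 cases: replicate 1 or 2 of unstimulated WT, replicate 2 of unstimulated SDHA-KO, and replicate 1 of stimulated WT. Cd3d was also lost without replicate 1 of unstimulated (0.36, adjusted p = 0.079) or replicate 2 of stimulated SDHA-KO (0.25, adjusted p = 0.15), and Lat was gained without replicate 1 of stimulated SDHA-KO (0.63, adjusted p = 0.00352). Cd3d was also lost without composition scaling (0.15, adjusted p = 0.265) and by limma on mean log values (0.23, adjusted p = 0.144), and Zap70 without composition scaling (0.31, adjusted p = 0.122). In cells under 10% mitochondrial UMIs Ptprc stood at −0.17 (adjusted p = 0.175) and Zap70 at 0.31 (adjusted p = 0.188), so both calls were lost, and Cd247 passed (0.36, adjusted p = 0.0368). In strict CD8 cells 6 members were called, with Zap70 at 0.91 (adjusted p = 0.000773), Lcp2 at 0.53 (adjusted p = 0.0091), Cd247 at 0.38 (adjusted p = 0.0296), and Cd3e at 0.36 (adjusted p = 0.0309) beside Cd3d and Ptprc. These differences rest on the same 8 libraries as the comparisons above.

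The mix of subsets differed between the stimulated genotypes. By the authors' annotation, Tem cells made up 37.1% and 38.6% of WT and 79.2% and 82.6% of SDHA-KO CD4 cells, and 23.2% and 28.9% of WT and 56.0% and 58.6% of SDHA-KO CD8 cells, and the rest were Tcm cells. Tcm and Tem cells of one library differed widely in some of these genes. Lat stood at 115 and 120 CPM in stimulated WT CD4 Tcm and at 324 and 319 in Tem cells, and at 102 and 97.2 against 228 and 295 in SDHA-KO. Over both genotypes, with the library as a block, Lat was 2.68-fold higher in CD4 Tem cells (log2 1.42 ± 0.083, adjusted p = 1.51e-07) and 2.40-fold higher in CD8 Tem cells (log2 1.27 ± 0.080, adjusted p = 1.98e-07).
Zap70 was higher in Tem cells by 1.10 ± 0.069 (CD4, adjusted p = 2.74e-07) and 0.99 ± 0.077 (CD8, adjusted p = 9.71e-07) on the log2 scale, from 53.8 and 62.3 CPM in WT CD4 Tcm to 123 and 129 in Tem cells. Ptprc was lower by 0.98 ± 0.068 (CD4, adjusted p = 6.04e-07) and 1.10 ± 0.077 (CD8, adjusted p = 4.44e-07), from 1313 and 1428 CPM in WT CD4 Tcm to 658 and 641 in Tem cells. Cd247 was lower too, by 0.42 ± 0.067 (adjusted p = 0.000251) and 0.47 ± 0.077 (adjusted p = 0.000307).
In all, 6 members were called between Tem and Tcm cells in each class, where 68.7% (CD4) and 68.4% (CD8) of all genes were called. Calls of Lat, Zap70, Ptprc, and Cd247 held without composition scaling, which moved the median of all genes by −0.74 in CD4 and −0.61 in CD8. Those of Cd3e (0.36 ± 0.065, adjusted p = 0.000631) and Lck (0.24 ± 0.077, adjusted p = 0.0166) in CD4 cells turned to −0.38 and −0.49, and that of Lck in CD8 cells (0.43 ± 0.120, adjusted p = 0.00878) to −0.18. Lck in CD4 cells also lost its call without replicate 2 of stimulated SDHA-KO (0.18, adjusted p = 0.0731), and Cd3d gained one without replicate 1 (0.32, adjusted p = 0.0125). Cd3g was lower in CD8 Tem cells under all settings run for it (−0.31 ± 0.074, adjusted p = 0.00346), and Cd3e of CD8 cells passed without replicate 2 of stimulated WT (0.30, adjusted p = 0.0304).

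**Figure D4:**
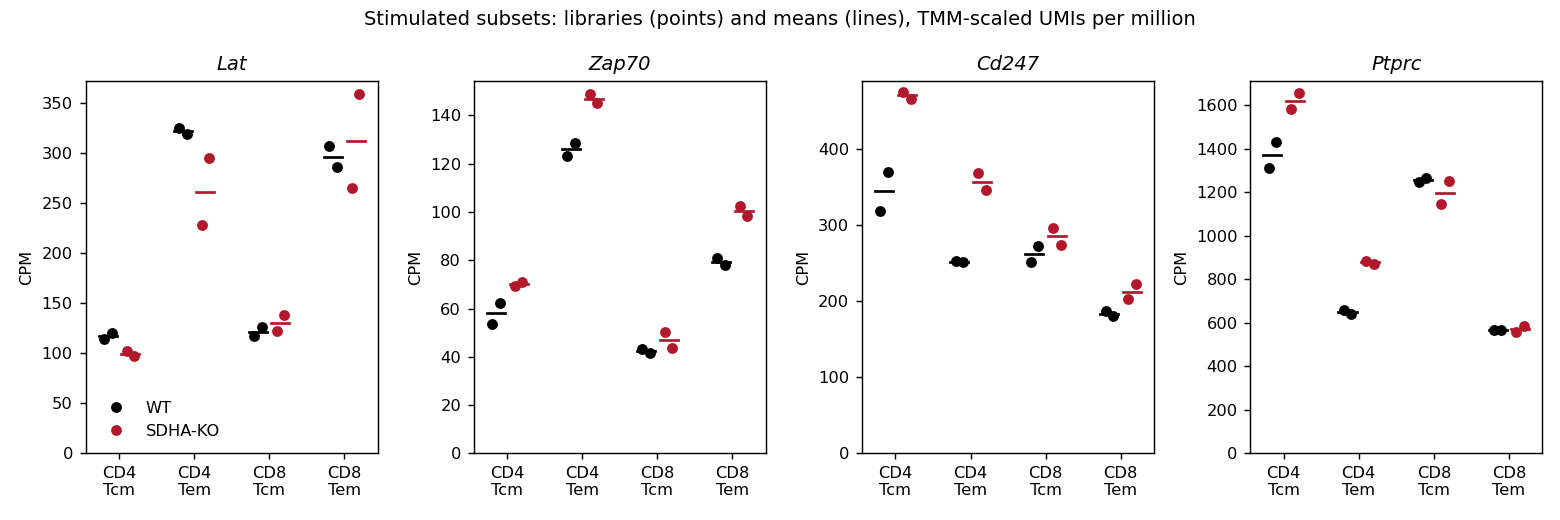
TMM-scaled CPM (linear axes from 0, scaled within each class) of Lat, Zap70, Cd247, and Ptprc in stimulated Tcm and Tem cells, WT in black and SDHA-KO in red, with a point per library and a line at the mean of 2. Lat and Zap70 are higher and Ptprc and Cd247 lower in Tem than in Tcm cells of every library of the same class.

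Tcm and Tem cells after stimulation also differed in RNA content. WT Tem cells held 57980 and 57984 UMIs per cell in the CD4 class against 12570 and 12558 in Tcm cells, and mitochondrially encoded genes gave 10.47% to 20.04% of the UMIs of Tcm but 1.79% to 3.48% of those of Tem cells over all stimulated libraries. When cells of a stimulated library were split at 10% mitochondrial UMIs and compared over nuclear UMIs alone, Ptprc was higher by 1.54 to 1.91 on the log2 scale in the cells at or above 10% in all 8 sums. Lat was lower there by values from −0.17 to −0.48 and Zap70 from −0.05 to −0.66. Cd247 (1.03 to 1.35) and the 3 CD3 chains were higher. Of WT cells, 541 of 1703 and 640 of 1801 lay under 10%, and of SDHA-KO cells 1320 of 1648 and 1410 of 1680. The part of RNA quality in the differences between genotypes was not tested beyond the values for cells under 10% given here.

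**Figure D5:**
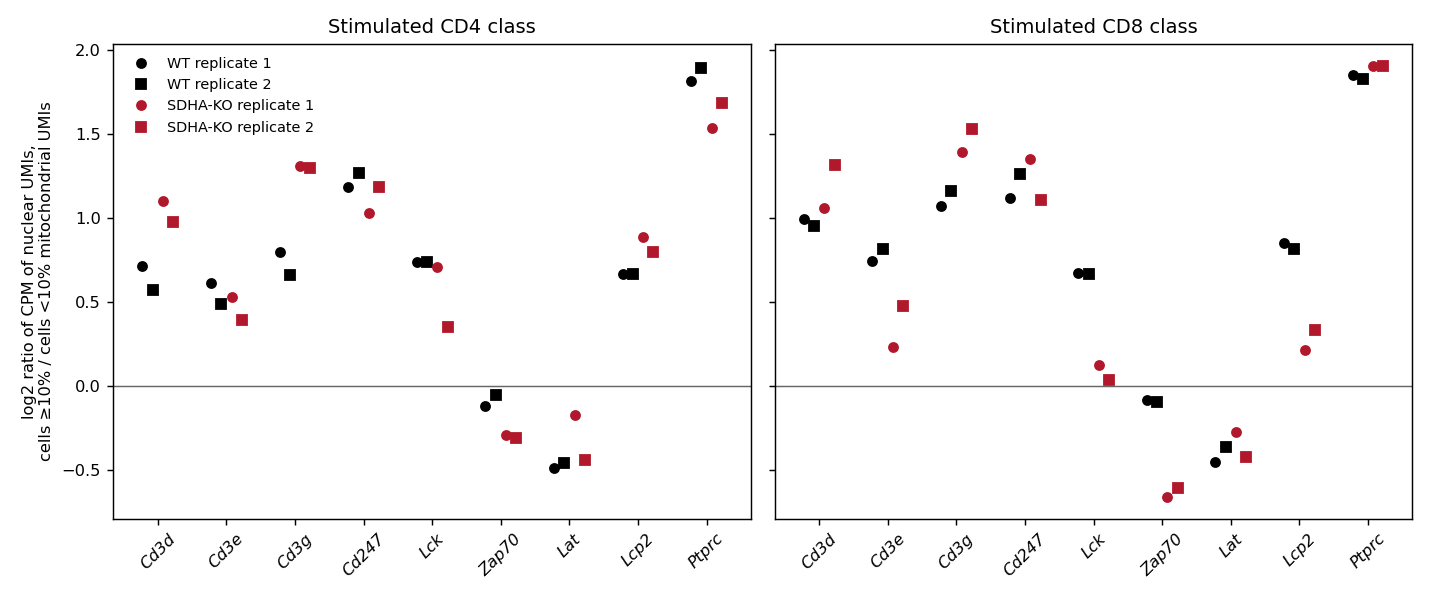
Log2 ratio of each member's level (CPM of nuclear UMIs) in stimulated cells with at least 10% over cells with under 10% mitochondrial UMIs of the same library, WT in black and SDHA-KO in red, replicate 1 as circles and replicate 2 as squares. Ptprc is at 1.54 to 1.91 in all 8 sums, and Zap70 and Lat lie below 0 in all 8.

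With Tcm and Tem cells given equal weight in each library, values that carry no test, the log2 ratio of SDHA-KO to WT was 0.24 for Zap70 in CD4 and 0.28 in CD8 cells, against 0.46 and 0.52 in the whole classes. For Cd247 in CD4 cells it was 0.47, and for Lcp2 0.35 in CD4 and 0.17 in CD8 cells. Lat turned to −0.28 in CD4 cells and stood at 0.08 in CD8 cells, and Ptprc stood at 0.30 in CD4 and −0.04 in CD8 cells. In cells under 10% mitochondrial UMIs, SDHA-KO exceeded WT by 0.23 ± 0.0756 for Zap70 (adjusted p = 0.0382), 0.45 ± 0.0818 for Cd247 (adjusted p = 0.00156), and 0.38 ± 0.0711 for Ptprc (adjusted p = 0.00189) in CD4 cells, while Lat was lower (−0.32 ± 0.0937, adjusted p = 0.0235). There the calls of Cd3e (0.14, adjusted p = 0.156) and Lcp2 (0.21, adjusted p = 0.0596) were lost.

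Within stimulated subsets, 10 member comparisons between genotypes were called. In CD4 Tcm cells Cd3d (0.43 ± 0.081, adjusted p = 0.00634), Cd3g (0.34 ± 0.082, adjusted p = 0.0173), Cd247 (0.45 ± 0.093, adjusted p = 0.00961), and Lcp2 (0.49 ± 0.091, adjusted p = 0.0059) were higher in SDHA-KO, where 25.1% of all genes were called. Cd247 stood at 475 and 466 CPM against 319 and 370 in WT. Without replicate 1 of stimulated WT, Cd3d (0.41, adjusted p = 0.0578), Cd3g (0.33, adjusted p = 0.131), and Cd247 (0.32, adjusted p = 0.123) were lost, and without its replicate 2, Cd3d (0.40, adjusted p = 0.0667), Cd3g (0.31, adjusted p = 0.153), and Lcp2 (0.45, adjusted p = 0.0701). In cells under 10% mitochondrial UMIs, Cd247 (0.02, adjusted p = 0.945), Cd3g (0.31, adjusted p = 0.192), and Lcp2 (0.18, adjusted p = 0.484) did not pass. Without replicate 1 of SDHA-KO, Lck (−0.43, adjusted p = 0.00323) and Ptprc (0.28, adjusted p = 0.0314) passed.
In CD4 Tem cells Cd247 stood at 368 and 346 CPM against 252 and 252 in WT (1.40-fold higher, log2 0.49 ± 0.074, adjusted p = 0.00346) and Ptprc at 885 and 869 against 658 and 641 (1.34-fold higher, log2 0.42 ± 0.065, adjusted p = 0.00364), where 31.7% were called. Both held under all 7 alternatives. Zap70, higher in the whole CD4 class of SDHA-KO, was called in neither CD4 subset by edgeR's test (Tcm 0.27 ± 0.112, adjusted p = 0.111, Tem 0.21 ± 0.074, adjusted p = 0.0676). It passed in 1 of 7 alternatives in each. Lat (−0.48, adjusted p = 0.00494) and Lcp2 (0.30, adjusted p = 0.0419) passed without replicate 2 of SDHA-KO, and Lcp2 also without composition scaling (0.41, adjusted p = 0.00731).
In CD8 Tcm cells Lck stood at 119 and 108 CPM against 162 and 166 (log2 −0.52 ± 0.098, adjusted p = 0.00848) and Cd3e at 132 and 143 against 170.1 and 188 (log2 −0.38 ± 0.101, adjusted p = 0.0288), where 27.9% were called. Without replicate 1 or 2 of stimulated WT both were lost (Lck −0.55, adjusted p = 0.103 and −0.52, adjusted p = 0.117, Cd3e −0.46, adjusted p = 0.158 and −0.32, adjusted p = 0.315), and Cd3e also without replicate 1 of SDHA-KO (−0.33, adjusted p = 0.0691). Neither passed in cells under 10% mitochondrial UMIs (Lck −0.48, adjusted p = 0.144, Cd3e −0.36, adjusted p = 0.297), and Cd3e passed neither with the replicate number as a block nor without composition scaling (−0.28, adjusted p = 0.0706). In these cells markers of γδ T cells summed to 356 and 448 CPM in SDHA-KO against 14.9 and 28.5 in WT, and Sdha did not pass the test (log2 −0.11 ± 0.097, adjusted p = 0.456).
In CD8 Tem cells Lcp2 stood at 132 and 132 CPM against 101 and 101 (log2 0.36 ± 0.065, adjusted p = 0.00727) and Zap70 at 103 and 98.4 against 80.9 and 78.0 (log2 0.31 ± 0.071, adjusted p = 0.0158), where 33.3% were called. The call of Zap70 was lost without replicate 1 of SDHA-KO (0.29, adjusted p = 0.056) and without replicate 1 (0.34, adjusted p = 0.0574) or 2 (0.30, adjusted p = 0.0862) of WT. Markers of γδ T cells summed to 233 and 228 CPM in these SDHA-KO sums against 20.5 and 17.2 in WT, and their part in these differences was not tested. Ptprc, lower in the whole CD8 class of SDHA-KO, was called in neither subset by edgeR's test (Tcm −0.065 ± 0.117, adjusted p = 0.709, Tem −0.015 ± 0.056, adjusted p = 0.859). Zap70 (0.167 ± 0.113, adjusted p = 0.307) and Lcp2 (−0.057 ± 0.094, adjusted p = 0.687) were not called in CD8 Tcm cells.

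Before stimulation, the subsets named by the authors were naive, Tem, and Treg cells of the CD4 class and naive and Tcm cells of the CD8 class. In CD4 naive cells Cd3d (682 ± 43.8 CPM in SDHA-KO, 868 ± 51.4 in WT, SD of 2 libraries, log2 −0.35 ± 0.098 SE) and Cd3g (709 ± 25.2 and 898 ± 22.1 CPM, log2 −0.34 ± 0.095 SE) were lower in SDHA-KO, where 3.57% of all genes were called. Their adjusted p values were 0.0499 and 0.048, and both calls were lost without replicate 1 (adjusted p = 0.316 and 0.422) or replicate 2 (adjusted p = 0.63 and 0.559) of WT and without composition scaling (adjusted p = 0.102 and 0.0985). Without replicate 1 or 2 of SDHA-KO, Ptprc (0.22, adjusted p = 0.00178) and Cd247 (−0.32, adjusted p = 0.000329), respectively, were gained.
All 4 receptor chains were lower in SDHA-KO CD4 Tem cells, where 7.83% were called. Cd247 stood at 215 and 224 CPM against 431 and 344 in WT (1.79-fold lower, log2 −0.84 ± 0.131, adjusted p = 2.26e-05), and Cd3g at 862 and 647 against 1077 and 1100 (1.47-fold lower, log2 −0.55 ± 0.106, adjusted p = 0.000422). Both held under all 7 alternatives. Cd3d (log2 −0.45 ± 0.102, adjusted p = 0.00272) was lost without replicate 2 of SDHA-KO (−0.34, adjusted p = 0.106), and Cd3e (−0.36 ± 0.113, adjusted p = 0.0461) was lost without it (−0.25, adjusted p = 0.48) and without replicate 1 (−0.44, adjusted p = 0.0625) or 2 (−0.29, adjusted p = 0.432) of WT, and without composition scaling (−0.22, adjusted p = 0.263). These sums came from 67 to 91 cells. Markers of γδ T cells summed to 335 and 233 CPM in the SDHA-KO Tem sums against 31.0 and 36.3 in WT, and Sdha did not pass the test in them (log2 −0.27 ± 0.207, adjusted p = 0.578), so these are only the libraries labelled SDHA-KO. The part of γδ cells in the lower Cd247 was not tested.

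In Treg cells no member was called by edgeR's test between genotypes (3 at an unadjusted p under 0.05), where 0.706% of genes were called. Zap70, at 35.0 and 45.8 CPM against 57.0 and 66.3 in WT, had the largest difference (log2 −0.59 ± 0.269, adjusted p = 0.465), and Sdha stood at −0.83 ± 0.241 (adjusted p = 0.128). In CD8 naive cells Cd3d stood at 728 and 713 CPM against 949 and 983 (log2 −0.42 ± 0.072, adjusted p = 0.000249), where 5.02% were called. This call was lost without replicate 2 of WT (−0.40, adjusted p = 0.0532), and without replicate 1 of SDHA-KO Cd3g (−0.32, adjusted p = 2.11e-06) and Ptprc (0.18, adjusted p = 0.0185) were gained. In CD8 Tcm cells none was called and none had an unadjusted p under 0.05 by edgeR's test, where 0.496% were called, in sums of 51 to 69 cells. In these Tcm sums Sdha did not pass either (−0.42 ± 0.242, adjusted p = 0.756), and γδ markers summed to 811 and 967 CPM in SDHA-KO against 111 and 121 in WT.

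Subsets differed from naive cells in members of each step. CD4 Tem cells held more Zap70 (log2 0.64 ± 0.119, adjusted p = 0.000205), Lat (0.43 ± 0.093, adjusted p = 0.00102), and Lcp2 (0.48 ± 0.097, adjusted p = 0.000499) and less Cd247 (−0.45 ± 0.126, adjusted p = 0.00824), where 32.2% of genes were called. Zap70 stood at 90.2 and 89.9 CPM in WT Tem against 64.5 and 60.8 in WT naive cells. The fit covers both genotypes. Cd247 overlapped between Tem (431 and 344 CPM) and naive cells (420 and 443) in WT and stood at 215 and 224 in Tem against 345 and 404 in naive cells of SDHA-KO, whose Tem sums carried the γδ markers given above. Its call was lost without replicate 2 of unstimulated SDHA-KO (−0.32, adjusted p = 0.0996) and without composition scaling (−0.17, adjusted p = 0.261), which added calls of Cd3d, Cd3e, Cd3g, Lck, and Ptprc, all higher in Tem cells.
Treg cells held less Lat (−0.58 ± 0.103, adjusted p = 0.000175), Cd3g (−0.40 ± 0.088, adjusted p = 0.00156), and Lck (−0.36 ± 0.091, adjusted p = 0.00576), where 22.0% were called. Their lower Cd3d (−0.24 ± 0.082, adjusted p = 0.0377) was lost without each of the 4 libraries in turn, at −0.24 to −0.26 with adjusted p values of 0.105 and 0.0813 without replicate 1 and 2 of SDHA-KO and 0.129 and 0.0736 without those of WT, and without the last Zap70 was gained (−0.50, adjusted p = 0.0407). Cd3d (−0.10, adjusted p = 0.436) and Lck (−0.21, adjusted p = 0.105) were lost without composition scaling.
CD8 Tcm cells held less Lat (−0.62, adjusted p = 8.55e-05) and Cd3g (−0.40 ± 0.075, adjusted p = 0.000481) and more Ptprc (0.44 ± 0.068, adjusted p = 6.37e-05), where 13.8% were called. Lat stood at 146 and 152 CPM in WT Tcm against 227 and 234 in naive cells. Their lower Cd3e (−0.30 ± 0.079, adjusted p = 0.0107) was lost without replicate 1 of SDHA-KO (−0.31, adjusted p = 0.0533) and without replicate 1 (−0.30, adjusted p = 0.0505) or 2 (−0.29, adjusted p = 0.0505) of WT, and without composition scaling (−0.20, adjusted p = 0.104).

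Among the numbered clusters that make up the subsets, the members with the widest range in stimulated WT cells were Ptprc and Cd247. In stimulated SDHA-KO cells Ptprc was also widest, followed by Lat in CD4 (3.37-fold) and Zap70 in CD8 cells (4.42-fold). In WT CD4 cells the unscaled CPM of Ptprc ran from 344 and 328 in the cluster Tem3 to 2030 and 2189 in Tcm5 (6.28-fold), and that of Cd247 from 126 and 129 to 526 and 702 in the same clusters (4.82-fold). Lat ran the opposite way, from 92.9 and 112 in Tcm3 to 314 and 292 in Tem3. In unstimulated WT CD4 cells Cd3d spanned 1.29-fold over 6 clusters and Lcp2 3.20-fold. These clusters were formed from the same counts, so the ranges carry no test.

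The classes were compared within libraries. In unstimulated WT cells CD8 sums held more Cd3d (1039 and 1099 CPM against 814 and 875 in CD4, log2 0.34 ± 0.046, adjusted p = 0.000159) and less Cd247 (299.9 and 323 against 409 and 418, log2 −0.41 ± 0.057, adjusted p = 0.000201) and Lcp2 (79.9 and 82.9 against 109.6 and 103, log2 −0.38 ± 0.072, adjusted p = 0.00253), where 15.2% of genes were called. The call of Lcp2 was lost without replicate 1 (−0.31, adjusted p = 0.0879). In stimulated WT cells CD8 sums held less Zap70 (50.4 and 51.4 against 75.7 and 81.5, log2 −0.63 ± 0.062, adjusted p = 6.03e-06), Lcp2 (−0.44 ± 0.049, adjusted p = 2.06e-05), Cd247 (−0.30 ± 0.050, adjusted p = 0.000532), and Cd3e (−0.25 ± 0.044, adjusted p = 0.000849), where 26.0% were called. Lat passed the test (−0.13) without replicate 2 of unstimulated SDHA-KO (adjusted p = 0.0484) and without replicate 1 (adjusted p = 0.0444) or 2 (adjusted p = 0.0459) of stimulated SDHA-KO, and Cd3g (0.13) without the latter 2 (adjusted p = 0.0174 and 0.018).
Unstimulated SDHA-KO cells showed the same order, with Cd3d higher in CD8 cells by 0.28 ± 0.047 (adjusted p = 0.00115) and Cd247 (−0.38 ± 0.058, adjusted p = 0.000499) and Lcp2 (−0.35 ± 0.071, adjusted p = 0.00452) lower. Cd3g (0.19 ± 0.049, adjusted p = 0.0177) and Lat (−0.19 ± 0.059, adjusted p = 0.048) were called as well, where 14.9% were called. These 5 calls became 2 without replicate 1 and 1 without replicate 2 of unstimulated SDHA-KO, and Lat was lost in 12 of 14 alternatives, without each library but replicate 2 of unstimulated SDHA-KO among them. Leaving out any 1 of the 4 stimulated libraries added calls of Cd3e (0.16, adjusted p = 0.019 to 0.0345) and Ptprc (0.14, adjusted p = 0.0275 to 0.0456). In strict classes Cd3e (0.23, adjusted p = 0.00539) and Lck (0.18, adjusted p = 0.0388) passed and Lat (−0.03, adjusted p = 0.855) and Lcp2 (−0.27, adjusted p = 0.0553) did not.
In stimulated SDHA-KO cells 7 members were called, where 49.2% of genes were called: Lat was higher in CD8 cells (0.23 ± 0.048, adjusted p = 0.00128), and Cd247 (−0.59 ± 0.050, adjusted p = 4.11e-07), Zap70 (−0.57 ± 0.060, adjusted p = 3.42e-06), Cd3e (−0.55 ± 0.045, adjusted p = 2.93e-07), Lcp2 (−0.44 ± 0.049, adjusted p = 4.8e-06), Ptprc (−0.32 ± 0.044, adjusted p = 3.59e-05), and Cd3d (−0.22 ± 0.044, adjusted p = 0.000901) were lower. In strict classes the differences of Zap70 (−0.14, adjusted p = 0.123), Lcp2 (−0.10, adjusted p = 0.248), and Cd3d (−0.06, adjusted p = 0.347) no longer passed.

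The SDHA-KO effect after stimulation differed between the classes for 5 members, where 25.4% of genes were called. It was more positive in CD8 than in CD4 cells for Lat (0.36 ± 0.068, adjusted p = 0.00149) and more negative for Ptprc (−0.36 ± 0.062, adjusted p = 0.000709), Cd3e (−0.30 ± 0.063, adjusted p = 0.00337), Cd247 (−0.29 ± 0.070, adjusted p = 0.00795), and Cd3d (−0.24 ± 0.062, adjusted p = 0.0129). For Zap70 and Lcp2, higher in both classes, the difference was 0.06 ± 0.086 and −0.01 ± 0.069 (adjusted p = 0.665 and 0.959). In strict classes that of Cd3e was 0.04 (adjusted p = 0.754), that of Cd3d did not pass, and those of Zap70 (0.46, adjusted p = 0.00261), Lcp2 (0.36, adjusted p = 0.01), and Lck (0.29, adjusted p = 0.0161) passed. In cells under 10% mitochondrial UMIs those of Cd3d (−0.10, adjusted p = 0.248) and Cd3e (−0.13, adjusted p = 0.208) did not pass. Cd3d was also lost without replicate 1 of stimulated WT (−0.24, adjusted p = 0.0576) or of stimulated SDHA-KO (−0.19, adjusted p = 0.0654), and without replicate 2 of the latter Cd3g was gained (−0.25, adjusted p = 0.0111).

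Around the members stood other genes of proximal TCR signaling, listed by role under 71 symbols, of which 70 were in the matrix. The symbols name Txk a second time as Rlk. In stimulated WT CD4 cells 41 of 70 tested were lower and 14 higher, with a median log2 fold change of −0.57 against 0.08 for all genes, of which 30.1% were lower and 36.2% higher. Adaptors made up the most one-sided group, with 15 of 17 lower and 1 higher. Effectors had 12 of 18 lower and 4 higher, coreceptors and accessory receptors 5 of 10 lower and 1 higher, kinases 3 of 7 lower and 1 higher, and negative regulators 6 of 18 lower and 7 higher. In WT CD8 cells 39 of 69 were lower and 12 higher, in SDHA-KO CD4 cells 44 of 70 and 16, and in SDHA-KO CD8 cells 44 of 69 and 12.
Named by size of change in WT CD4 cells, the Tec family kinase Txk fell from 241 to 23.4 CPM (mean of 2 libraries, log2 −3.36 ± 0.121, adjusted p = 1.15e-09), the diacylglycerol kinase Dgka from 389 to 45.4 (−3.10 ± 0.081, adjusted p = 1.73e-10), the adaptor Sit1 from 48.3 to 6.49 (−2.89 ± 0.112, adjusted p = 2.09e-09), and the protein kinase C isoform Prkcq from 537 to 98.3 (−2.45 ± 0.073, adjusted p = 3.7e-10). The ubiquitin ligase Cblb rose from 169.7 to 498 CPM (1.55 ± 0.114, adjusted p = 3.03e-07) and the paracaspase Malt1 from 93.7 to 214 (1.19 ± 0.106, adjusted p = 1.51e-06). The adaptor Sh2d2a (0.69 ± 0.096, adjusted p = 5.95e-05) and the kinase Map4k1 (0.47 ± 0.091, adjusted p = 0.000764) rose as well.

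Between genotypes, 1 of these genes was called before stimulation in CD4 cells, Cd4 itself, at 168 CPM in WT and 632 in SDHA-KO (log2 1.91 ± 0.079, adjusted p = 8.47e-07), and none of 69 in CD8 cells by edgeR's test. The authors assigned classes from the ratio of Cd4 to Cd8a transcripts, so the level of Cd4 within the CD4 class is partly a condition of the data. After stimulation 22 of the 70 pathway genes were higher and 13 lower in SDHA-KO CD4 cells, and 17 of 69 higher and 27 lower in CD8 cells. Of all genes, 22.7% were higher (2925 of 14264 lower) in CD4 cells, and 26.8% higher and 23.5% lower in CD8 cells, so the share of pathway genes was near that of all genes for the lower ones in CD4 and the higher ones in CD8 cells. In CD4 cells Malt1 (214 to 68.3 CPM, −1.65 ± 0.101, adjusted p = 8.39e-07) and the adaptor Grap2, which binds SLP-76 (172 to 74.7, −1.21 ± 0.097, adjusted p = 5.5e-06), were lower, and Trat1 (0.85 ± 0.119, adjusted p = 0.000214) and Cblb (0.59 ± 0.107, adjusted p = 0.00122) were higher. In CD8 cells Themis, which sets TCR thresholds in the thymus (656 to 253 CPM, −1.37 ± 0.137, adjusted p = 1.49e-05), the Ras activator Rasgrp1 (70.3 to 31.5, −1.16 ± 0.084, adjusted p = 2.26e-06), Tec (−1.14 ± 0.177, adjusted p = 0.000313), and the coreceptor chain Cd8b1 (262 to 125, −1.07 ± 0.105, adjusted p = 1.34e-05) were lower. Dok2 (0.96 ± 0.107, adjusted p = 2.95e-05) and Sh2d2a (0.88 ± 0.099, adjusted p = 3.32e-05) were higher there. The part of Trdc cells, whose share of this class is given above, in these differences was not tested.

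Across the 16 sums of libraries and classes, the log levels of Cd3e, Cd3g, and Lck moved most alike (Pearson r of 0.97 to 0.98), followed by Cd3d with Cd3g (0.95). Zap70 and Lcp2 followed each other (0.76) and did not follow the CD3δ, CD3ε, and CD3γ genes and Lck, with weak negative values of −0.14 to −0.44. Cd247 was nearest to Cd3e (0.85). The sums share libraries and fall into 2 states, so these values describe the pattern and carry no test. Among 5726 genes of at least 20 CPM, those most like Cd3e were Cox7a2l (0.997), 2310009A05Rik (0.996), and Klf2 (0.995), and those most like Cd3g were Cd27 (0.995), Paxx (0.991), and Orai2 (0.991). Ifi208, Hsd11b1, and Mfap1b were most like Lck (0.994 to 0.995), the last with a near-identical copy in the genome. For Cd3d they were Tbxa2r, Acaa1a, and Rplp1 (0.968 to 0.972), for Cd247 B630019A10Rik, Cytip, and St8sia1 (0.965 to 0.975), and for Ptprc Xrn1, Tut4, and Rps6ka3 (0.975 to 0.978). The least close neighbors were those of Zap70, Oaz1, Dynlrb1, and Nfkbia (0.892 to 0.904), of Lat, Rbm38, Serpinb6a, and Actb (0.893 to 0.898), and of Lcp2, Ldhb, Gata3, and Vav3 (0.910 to 0.937).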

How the data were processed

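Splenic T cells were profiled with 10x 3′ gene expression in 8 libraries of 4 groups. The authors demultiplexed reads with bcl2fastq and counted UMIs per gene and cell with Cell Ranger on mm10 (per the submitters' processing notes, versions not given in the sources used here), merged libraries in Seurat, and removed cells with very many detected genes and clusters lacking CD3 transcripts. They deposited raw UMI counts and a cell table with library, class, subset, and the percent of UMIs from mitochondrially encoded genes. The authors assigned CD4 or CD8 class from the ratio of Cd4 to Cd8a transcripts of a cluster and subsets from marker genes. No doublet caller was run here. All columns belonged to this series (0 of another).

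Counts were summed per library and class or subset, with sums of at least 20 cells kept, and tested with edgeR 4.0.16 (quasi-likelihood test, TMM scaling, filterByExpr) over all genes of a class, with Benjamini-Hochberg adjustment at 0.05. Classes, and subsets within libraries, were compared with the library as a block. Procedures were tested on simulated data. The members and gene lists were chosen with earlier results of these data known. All 9 members were described, and of each pathway group the called gene of at least 20 CPM with the largest rise and that with the largest fall were named, with the 3 genes most like each member by Pearson r of log levels.

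Alternatives were limma 3.58.1 on mean log values per cell, DESeq2 1.42.0, its size factors, no composition scaling, no filter, thinned sums, only the libraries compared, the replicate number as a block, strict classes, cells under 10% mitochondrial UMIs, mitochondrially encoded genes left out, and each library left out. Values for numbered clusters, Trdc cells, the mitochondrial split, and equal subset weights were chosen after seeing the data. Same-numbered replicates of different groups did not deviate together, so samples were not paired. Promoters came from RefSeq (GRCm38.p6). R 4.3.3, Python 3.11.15, numpy 2.4.6, pandas 2.3.3, scipy 1.17.1, and matplotlib 3.10.9 were used.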

Additional observations from a re-analysis of the deposited data

Results flagged for a closer look

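The following results were singled out because a test of the difference between 2 effects was itself passed in edgeR's quasi-likelihood fit. Their errors and adjusted p values, with the settings that end them, stand in the comparisons above, and their cause was not tested.

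The SDHA-KO effect was more positive after stimulation than before it in CD4 cells for Cd3d (difference of log2 fold changes 0.511), Cd3e (0.395), Cd3g (0.388), Cd247 (0.563), and Zap70 (0.420). In CD8 cells the same difference between states was 0.352 for Cd3d and 0.507 for Zap70, and it was −0.496 for Ptprc. The part of the UMIs from Ptprc was higher in unstimulated SDHA-KO CD8 cells (log2 0.182, not called) and lower in stimulated ones (−0.314).

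After stimulation, the SDHA-KO effect in CD8 minus that in CD4 cells was −0.235 for Cd3d, −0.298 for Cd3e, −0.290 for Cd247, and −0.363 for Ptprc, and it was 0.363 for Lat. The stimulation effect of WT cells was more negative in CD8 than in CD4 cells for Cd3d (−0.325), Cd3e (−0.367), and Zap70 (−0.695).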

How the results depend on the processing

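Of 117 member calls, 61 held under every alternative run for them. Of 3366 values of single members under an alternative, 3080 kept their side of the threshold, among them 160 that changed sign with no call either way. Another 149 lost a call, 112 gained one, and 25 turned sign with a call in the main or the alternative fit. None of these 25 came on leaving out a library. The cause of these turns was not tested. In cells under 10% mitochondrial UMIs, CD8 against CD4 in stimulated WT cells was −0.165 for Cd3d and −0.154 for Ptprc, and SDHA-KO against WT in stimulated CD8 cells was 0.015 for Ptprc. In strict classes Cd3e stood at 0.274 in SDHA-KO against WT stimulated CD8 cells, and the SDHA-KO effect in CD8 minus CD4 stimulated cells at 0.042 for Cd3e and 0.362 for Lcp2. Without composition scaling, Tem against naive CD4 cells gave 0.276 for Lck, Tem against Tcm CD4 cells −0.538 for Cd3d, −0.377 for Cd3e, −0.650 for Cd3g, −0.494 for Lck, and −0.671 for Lcp2, and Tem against Tcm CD8 cells −0.416 for Cd3e, −0.179 for Lck, and −0.442 for Lcp2. Stimulation of WT CD8 cells gave 0.047 for Ptprc and 0.057 for Zap70 there, and the stimulation effect in CD8 minus CD4 cells 0.224 for Lat and 0.202 for Ptprc. By limma on mean log values, stimulation gave 0.089 for Cd247 and 0.079 for Cd3d in SDHA-KO CD4, 0.028 for Cd247 in SDHA-KO CD8, 0.285 for Ptprc in WT CD4, and 0.444 for Ptprc and 0.016 for Zap70 in WT CD8 cells.

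Counts of members called moved by more than 1.5 times in 29 of 306 cases. For SDHA-KO against WT in unstimulated CD4 cells, 0 became 2 by DESeq2's Wald test, without a filter on low counts, with only the 4 libraries compared, and with thinned sums, 1 with DESeq2's size factors, and 0 to 2 on leaving out a library. In stimulated CD4 cells 4 became 2 to 5 on leaving out a library. For the SDHA-KO effect between states, 5 in CD4 cells became 2 in cells under 10% mitochondrial UMIs and 1 to 5 on leaving out a library, and 3 in CD8 cells became 1 without composition scaling, 6 in strict cells, and 1 to 4 on leaving out a library. In unstimulated CD8 cells 1 became 0 by limma and 0 to 1 on leaving out a library, and in stimulated CD8 cells 4 became 2 under 10% mitochondrial UMIs. CD8 against CD4 in unstimulated SDHA-KO cells gave 1 to 6 in place of 5 on leaving out a library. The difference of the stimulation effect between classes gave 5 in place of 3 without composition scaling. The 17 calls between genotypes within subsets became 11 to 20 on leaving out a library. Leaving out a library left 1 in its group, which was assumed to vary like the others.

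Same-numbered libraries of different groups had correlated deviations of −0.16 to 0.0395, so the replicate numbers were not taken to pair samples. With the replicate number as a block, 18 members were called within subsets in place of 17, no count moved by over 1.5 times, and Cd3e in stimulated CD8 Tcm cells did not pass (−0.374, adjusted p = 0.0546).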
